A study of Mus musculus with 9 samples.

Results

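The circles described here are the 1370 circular RNAs (circRNAs) on a mouse liver array whose ends lie less than 1000 bp apart. They were chosen from the names of the array's probes: 14043 of the 30534 circRNA probes are named by chromosome, start, end and span, and those with a span under 1000 bp were kept. They make up 9.76% of the position-named circles and 4.49% of all circRNA probes. No measured value entered this rule, although the set was chosen with earlier results of these data known. A further 12673 position-named circles span 1000 bp or more and serve as the comparison, while the other circRNA probes carry codes that give no span.

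RNA came from the livers of male C57BL/6J mice aged 20 weeks, an inbred strain, in 3 groups. Metformin mice ate a high fat diet (D12451, 45% of calories as fat) for 17 weeks and were given 3 mg/kg/day metformin by gavage in the last 5 weeks. High fat diet mice ate the same diet for 17 weeks and were given saline by gavage in the last 5 weeks. Control mice had chow over the 17 weeks; the labels list no gavage for this group, so that diet and gavage cannot be told apart in comparisons with them. Each group had 3 arrays, each of them made from the pooled livers of 4 mice. Array to array spread is thus that of pools, not of single mice. Metformin is a biguanide given to lower blood glucose in diabetes.

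A circRNA forms when the end of a downstream exon is spliced back to the start of an upstream one. The closed ring has no free ends, which protects it from exonucleases such as RNase R, the enzyme applied to these samples to digest linear RNA. The span is the distance in the genome between the back-splice ends, introns included, and is therefore an upper limit for the length of the RNA. A short span leaves room for a lone exon, for neighbouring exons or for intron sequence, while many circles of animal genomes join several exons across long introns. Most liver RNA comes from hepatocytes, and in whole liver fewer cells of a type and less RNA per cell cannot be told apart. Host genes, exons and introns were not assigned, since the positions are those of build mm9 and the gene table at hand is of another build. For the same reason defining markers of liver cells were not checked.

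Levels are given as log2 of the processed spot intensity above the array's own 75th percentile, so that a level of 0 is as bright as that percentile. Each circRNA probe has a partner probe of the same name ending in _neg. No source used here says what the partner should bind, and it is taken as a second reading at the same circle that may hold signal from elsewhere. By the scanner software's test, the probes well above background made up 69.4% of all probes on metformin replicate 3 and 71.7% on high fat diet replicate 2, against 77.0% to 84.2% on the other 7 arrays. All 3 control arrays and 1 high fat diet array lay in column 1 of a first slide. Column 2 held 2 high fat diet and 2 metformin arrays, and the remaining metformin array, replicate 3, lay in column 1 of another slide. Array position and group are thus largely confounded. No metformin array shared both slide and column with a control array. Across the 981 short circles well above background with a value on every array, the levels of any 2 arrays correlated at 0.974 to 0.993, a description across circles that share each array.

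The spans of the short circles were packed towards the low end. They began at 100 bp and had a median of 451 bp, against a median of 8108 bp over all position-named circles, whose longest span was 29990 bp. There were 142 circles under 150 bp and 130 from 150 to under 200 bp. By class, 272 spanned under 200 bp, 337 from 200 to under 400 bp, 279 from 400 to under 600 bp, 254 from 600 to under 800 bp and 228 from 800 to under 1000 bp. The lower end is an edge of the array's design, since no position-named circle spanned less than 100 bp.

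**Figure D1:**
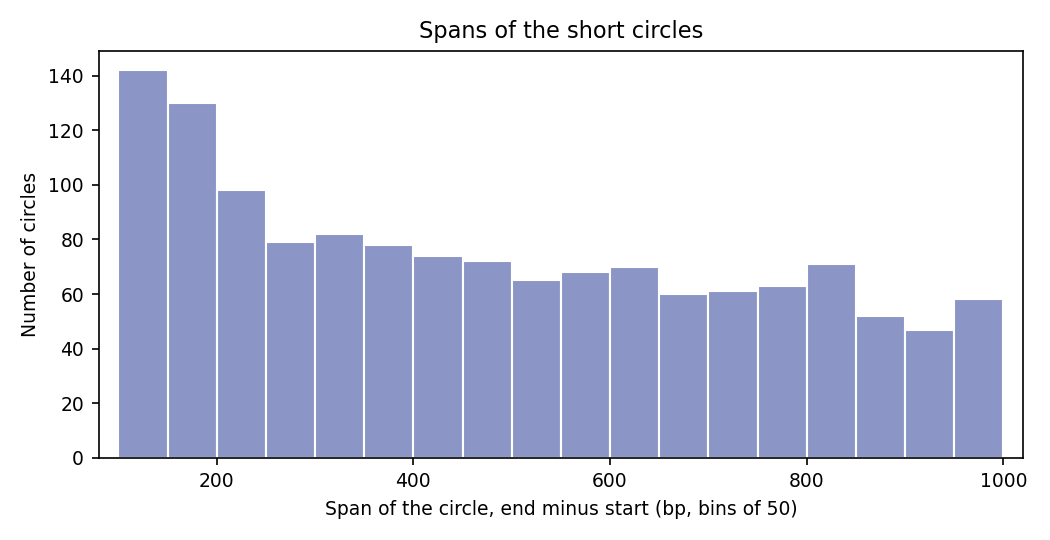
Number of short circles (vertical axis) in each 50 bp bin of span (horizontal axis, bp). The first 2 bins, which cover 100 to under 200 bp, hold 142 and 130 circles, and the bins thin out towards 1000 bp.

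Short circles mostly stood by themselves in the genome. No other position-named circle overlapped 861 of them (62.8%), against 4336 (34.2%) of the circles spanning 1000 bp or more. A start or end was shared with another circle by 402 short circles (29.3%), against 6165 (48.6%) of the longer ones. A short span leaves less room for overlap, which was not adjusted for. Lying wholly inside a longer circle was about as frequent in both classes, with 481 short circles (35.1%) and 4113 longer ones (32.5%). Within the short circles the share standing alone was 68.4% under 200 bp and 51.3% from 800 to under 1000 bp. Circles from 1000 to under 2000 bp came close to the short ones, with 55.7% alone and 32.5% sharing a start or end. These traits are thus not particular to spans under 1000 bp.

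The short circles fell into 1325 groups of overlapping circles. Of these groups, 1285 held 1 short circle, 35 held 2 and 5 held 3. Groups of 10 or more circles held 45 short circles (3.28%) and 853 longer ones (6.73%). Of circles from 1000 to under 2000 bp, 3.41% lay in such groups. The group on chromosome 11 (mm9 23220661 to 23267553, 10 circles) held the brightest short circle of all, at a mean level of 6.71, beside short circles at -1.47 and -1.92. The group on chromosome 2 (155976471 to 156003121, 11 circles) held short circles at 3.30, 2.73 and 1.80. Those of another chromosome 2 group (166740670 to 166770108, 12 circles) stood at 0.12, -2.16 and -2.18. These are levels of different probes, which are not on one scale, and the probe at 6.71 had a partner at 6.75. By chromosome, the share of position-named circles that were short was highest on chromosomes 17 (70 of 519, 13.5%) and 7 (95 of 755, 12.6%) and lowest on chromosome 6 (52 of 677, 7.68%).

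The signal of short circle probes was somewhat higher than that of longer circles, and so was the signal of their partner probes. Signals of different probes are not on one scale, so the medians below describe the classes of probes and not the amounts of the circles. The median of the mean level over 9 arrays was -1.12 for short circles, against -1.47 for circles spanning 1000 bp or more and -1.29 for all circRNA probes. Circles under 200 bp had a median of -0.58. The other short classes had medians of -1.37 (from 200 bp), -1.14 (from 400 bp), -1.24 (from 600 bp) and -1.38 (from 800 bp), which is no steady trend with span. Among longer circles the median was -1.19 from 1000 to under 2000 bp, -1.37 from 2000 to under 10000 bp and -1.60 above that. On each of the 9 arrays the median of the short circles exceeded that of the longer ones, by 0.30 to 0.40, and that of circles under 200 bp exceeded it by 0.81 to 0.99. The arrays carry the same probes, so that this agreement between arrays speaks for the reading and not for other circles, and no test was made. Levels within each class were far wider than these shifts: the 10th and 90th percentiles of the short circles lay at -5.68 and 2.19.

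**Figure D2:**
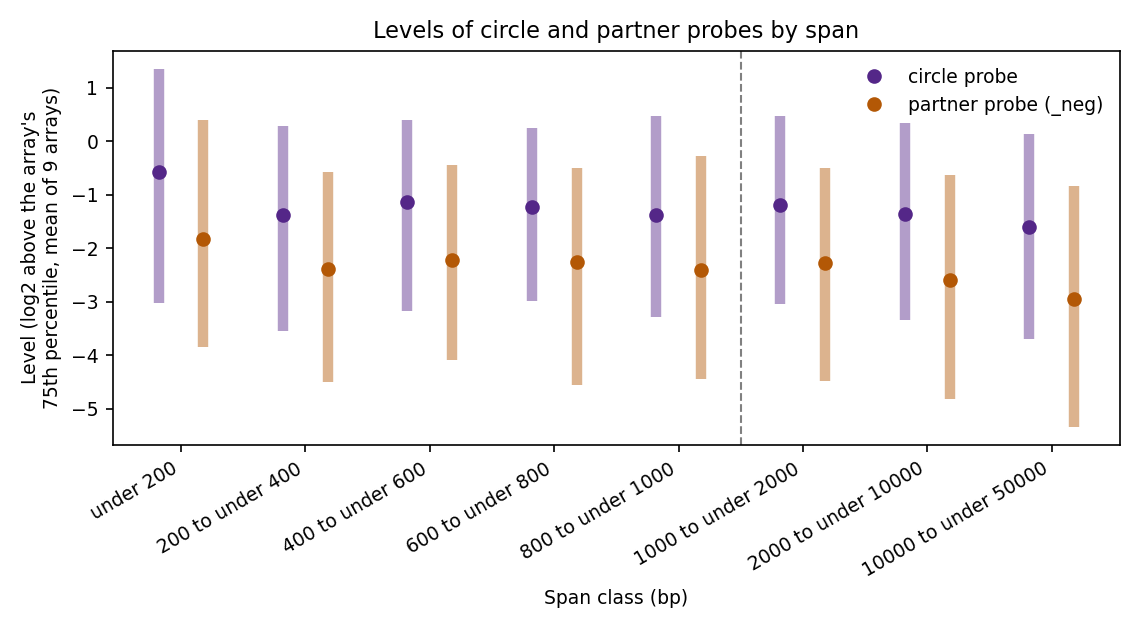
Level of circle probes (purple) and partner probes (orange) by span class, as log2 above the array's 75th percentile averaged over 9 arrays; points are medians and bars run from the lower to the upper quartile. Medians of circle probes are -0.58 under 200 bp, -1.38 to -1.14 in the other classes left of the dashed line at 1000 bp, and -1.60 at the far right, with the partner probes about 1 log2 unit lower in each class and the bars overlapping throughout.

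The brightest 1% of all circRNA probes held 305 probes. Of these 17 were short circles, which is 5.57% of that list and 1.24% of the short circles, and 44 were longer position-named circles, 0.347% of theirs. Circles under 200 bp supplied 5 of the 17, which is 1.84% of that class.

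Detection differed little with span. Well above background on all 9 arrays were 1034 short circles (75.5%), against 73.2% of longer circles and 75.1% of all circRNA probes. A further 128 short circles (9.34%) were so on no array, against 9.67% of longer circles, and 208 were so on some arrays. The share of short circles well above background averaged 84.4% ± 6.17 in the metformin group, 82.9% ± 4.54 in the high fat diet group and 86.7% ± 1.65 in the control group (SD, n = 3 each). The ranges of the groups overlapped. Metformin replicate 3 (77.2%) and high fat diet replicate 2 (78.2%) were lowest for short circles, as they were for all probes. Without both of them, a setting added after seeing the data, no short circle was called in any comparison below.

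**Figure D3:**
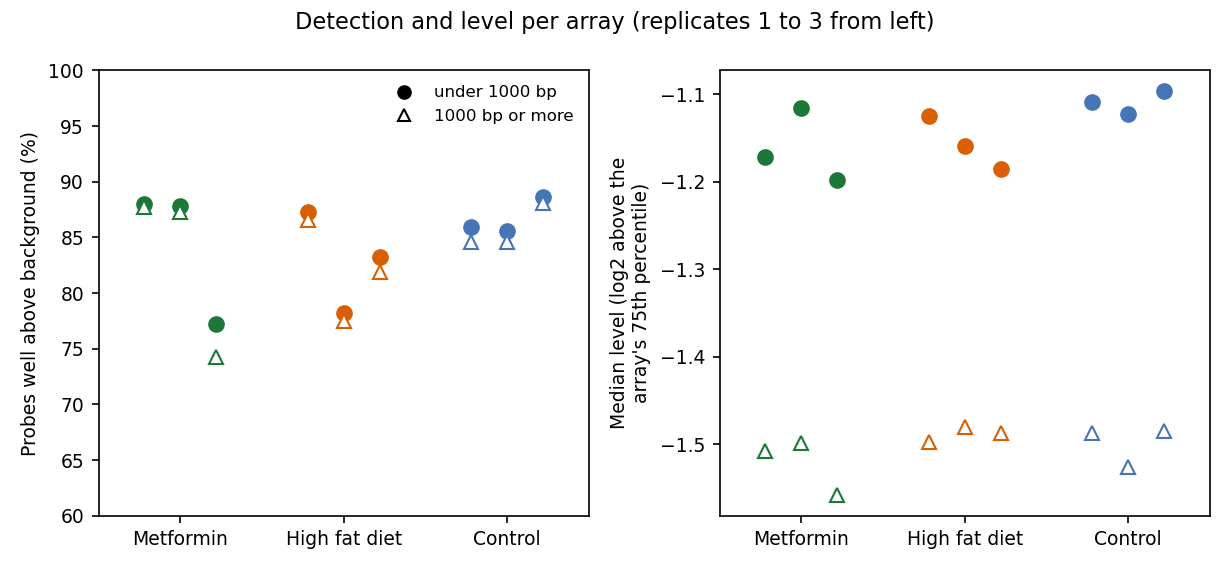
Left, share of probes well above background (%), with an axis that starts at 60; right, median level (log2 above the array's 75th percentile), for each array of the metformin, high fat diet and control groups. Filled circles are circles spanning under 1000 bp and open triangles those spanning 1000 bp or more. The filled circles lie above the triangles on all 9 arrays, by 0.30 to 0.40 in level, and both shares are lowest on metformin replicate 3 (77.2% of short circles) and high fat diet replicate 2 (78.2%).

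The partner probes of short circles were brighter too, and few short circles had a signal of their own with a silent partner. The median partner level was -2.22 for short circles, against -2.74 for longer ones. The partner was well above background on all 9 arrays for 64.5% of short circles, 71.0% of those under 200 bp and 57.9% of longer circles. Circles from 1000 to under 2000 bp were close to the short ones in both, at -2.27 and 64.4%. Brighter partners are thus not particular to spans under 1000 bp. The median difference between circle probe and partner was 0.63 for short circles, against 0.73 for longer ones, and on each array the short circles had the smaller median. Its mean over arrays was 0.60 ± 0.0718 in the metformin group, 0.62 ± 0.0235 in the high fat diet group and 0.66 ± 0.00608 in the control group (SD, n = 3 each). The lowest value, 0.52, was that of metformin replicate 3.

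Pair by pair, 787 short circles (57.4%) were brighter than their partner on all 9 arrays, against 57.6% of longer circles. A difference above 1 log2 unit on all 9 arrays was found for 378 (27.6%), against 30.6%. The partner was the brighter probe on all 9 arrays for 185 short circles (13.5%), against 11.7%. Only 26 short circles (1.90%) were well above background on all 9 arrays with a partner that was so on none, against 4.73% of longer circles. Of these 26, 11 spanned 800 to under 1000 bp (4.82% of that class) and 2 spanned under 200 bp (0.735%). In the authors' deposited table, whose values stand at a floor of -3.32 where the partner was as bright or brighter and in a few cases of a slightly brighter circle probe, 191 short circles (13.9%) stood at the floor on every array, against 12.6% of longer circles.

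Among the 10 brightest short circles, 4 were matched by their partner within 0.1 log2 units on average. The brightest, on chromosome 11 (23263791 to 23264512, 721 bp), stood at 6.69, 6.68 and 6.92 in the metformin arrays, 6.70, 6.40 and 6.62 in the high fat diet arrays, and 6.72, 6.84 and 6.84 in the control arrays. Its partner averaged 6.75 and was the brighter probe on 6 of 9 arrays. The circles on chromosome 12 (8735662 to 8735955, 293 bp, mean 6.21), chromosome 11 (60367216 to 60367896, 680 bp, mean 5.15) and chromosome 9 (108430920 to 108431249, 329 bp, mean 4.90) differed from their partners by 0.046, -0.074 and 0.0094. The high fat diet arrays of the brightest circle lay just below its control arrays, the metformin arrays overlapped both, and the high fat diet arrays of its partner were its lowest as well.

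For the other 6 the circle probe was clearly the brighter one. The circle on chromosome 12 from 58339350 to 58340276 (926 bp) stood at 4.88, 4.71 and 4.99 in the metformin arrays, 4.91, 4.71 and 4.77 in the high fat diet arrays, and 4.71, 4.95 and 4.92 in the control arrays. Its partner averaged -0.43, a difference of 5.27 ± 0.182 (SD over 9 arrays). The groups overlapped, and the SD over all 9 arrays was 0.113. The remaining 5 were circles on chromosome 17 (57357988 to 57358094, 106 bp), chromosome 7 (26426476 to 26426845, 369 bp), chromosome 1 (71698101 to 71698223, 122 bp), chromosome 11 (116050729 to 116050889, 160 bp) and chromosome 5 (122260860 to 122261621, 761 bp). Their mean levels were 5.71, 5.28, 4.86, 4.67 and 4.37, and their differences from the partner were 1.96, 1.39, 1.57, 0.80 and 1.44. The partner of the 106 bp circle had an unflagged value on only 5 arrays.

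The largest differences between a circle probe and its partner belonged to circles whose partner was near background. On chromosome 1 (52579066 to 52579995, 929 bp) the circle probe stood at 3.05, 2.85 and 2.83 in the metformin arrays, 3.12, 2.60 and 2.79 in the high fat diet arrays, and 2.88, 3.04 and 2.99 in the control arrays, while its partner was well above background on none of the 9. The groups overlapped. With the partner at no less than the lowest level of any probe well above background on each array, the circle probe was at least 7.96 log2 units brighter. The same bound was 5.79 for a circle on chromosome 9 (79746002 to 79746283, 281 bp) and 4.93 for one on chromosome 11 (79838670 to 79839456, 786 bp), whose partners were also well above background on no array. For circles on chromosome 8 (14563849 to 14564803, 954 bp) and chromosome 17 (86958491 to 86959064, 573 bp) the partner was so on 2 and 5 of 9 arrays, and the mean differences were 8.08 and 6.30.

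At the other extreme, a short circle on chromosome 10 (84176374 to 84177156, 782 bp) was well above background on all 9 arrays and yet dimmer than its partner, with a difference of -4.29 ± 0.271 (SD over 9 arrays). Its level averaged -0.70 and that of its partner 3.59. Next came circles on chromosome 2 (121124333 to 121124782, 449 bp) at -3.75, chromosome 7 (25798605 to 25798937, 332 bp) at -3.23, chromosome 16 (43291127 to 43292002, 875 bp) at -2.79 and chromosome 6 (47840065 to 47840722, 657 bp) at -2.12. For all 5 the partner was the brighter probe on each array.

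The 5 shortest circles, each of 100 bp, had mean levels from -5.61 to 2.49. The one on chromosome 9 (58338099 to 58338199) stood at 2.46, 2.25 and 2.95 in the metformin arrays, 2.33, 2.61 and 2.42 in the high fat diet arrays, and 2.62, 2.49 and 2.28 in the control arrays, so that the groups overlapped. Those on chromosome 14 (37690993 to 37691093) and chromosome 1 (160432472 to 160432572) averaged 0.46 and 0.032, and all 3 were brighter than their partner on every array. The one on chromosome 15 (39398489 to 39398589) fell short of well above background on every array, and the one on chromosome 10 (108339271 to 108339371) was so on 1 metformin, no high fat diet and 1 control array. At the upper limit, the circles 1 bp short of 1000 bp with a value on every array averaged -0.33 (chromosome 13, 107681696 to 107682695), -5.04 (chromosome 6, 22949200 to 22950199) and -6.93 (chromosome 3, 75254741 to 75255740). Just outside it stood circles of 1000 bp at -2.35 (chromosome 12, 110901815 to 110902815), the next longer span at -1.48 (chromosome 13, 58364559 to 58365560) and 1003 bp at -3.25 (chromosome 5, 28333451 to 28334454).

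For the comparisons between groups at least 1 group had to show the circle well above background on each of its 3 arrays. This kept 1154 short circles (84.2%), close to the 84.7% of all circRNAs. In all 3 groups the condition was met by 1034 of them and in 2 groups by 53. It was met only in the control group by 62, only in the high fat diet group by 3 and only in the metformin group by 2. The matching shares over all circRNAs were not computed, so these counts cannot be read as a trait of short circles. The metformin and high fat diet groups each hold 1 of the 2 arrays of lowest detection, and these 62 passed only through the control group.

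The first comparison, high fat diet against control, asks what the diet, with its gavage, did to the short circles. None was called, at 0 of 1151 tested (limma, adjusted p under 0.05 over all circRNAs, background 0.0%), and the smallest adjusted p was 0.279. At an unadjusted p under 0.05, 26 were higher on the diet and 65 lower, where the background over all tested circRNAs was 2.07% higher, 5.18% lower and 7.25% in all. These are 2.26% and 5.65% of the short circles tested, shares near the background. Arrays of the groups did not overlap for 37 circles that were higher (background 3.45%) and 111 that were lower (background 8.68%). The median log2 difference was -0.068, against -0.056 over all circRNAs tested, and -0.036 without the 2 arrays of lowest detection. The lower count was 119 when high fat diet replicate 1 was left out, and the higher one was 14 without control replicate 1 and 13 without control replicate 2. With array column as a covariate the counts were 15 higher and 43 lower, and with the ratio of circle to partner in place of the circle they were 28 and 29. Normexp with 75th percentile scaling gave 41 and 62, and the authors' deposited table gave 32 and 40. Within column 1, where 1 high fat diet array stood against the 3 control arrays, the median was 0.0099. For alternative settings the share over all circRNAs was not computed, here or in the later comparisons. Their counts therefore cannot tell a shift of the short circles from a shift of all circRNAs.

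The short circles with the smallest p among those lower on the diet had fitted log2 differences between -0.62 and -1.21, with adjusted p of 0.279 to 0.332. With normexp and quantile scaling the differences were -0.20 (410 bp), -1.09 (404 bp), -0.31 (761 bp), -0.18 (204 bp) and -0.13 (992 bp). The sizes for dim circles thus depend on how background is handled. Of these 5, the circles of 410, 204 and 992 bp passed the filter only through the control group, where they were high, so that their being lower elsewhere is partly set by that choice. A circle on chromosome 16 (60837599 to 60838009, 410 bp) stood at -5.27, -6.01 and -5.95 in the high fat diet arrays, against -4.51, -4.67 and -4.55 in the control arrays. It was well above background on all control arrays and on no high fat diet array, and it was at least 1.11-fold lower on the diet (limma, adjusted p = 0.279). The groups did not overlap, and the metformin arrays, at -5.03, -5.16 and -5.89, lay below the control arrays as well. Its partner was well above background on no array.

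A circle on chromosome 19 (43579012 to 43579416, 404 bp), which shares its start with a longer circle of the same locus, stood at 0.17, -0.13 and -0.27 in the high fat diet arrays, against 1.1, 1.13 and 1.16 in the control arrays. The difference was -1.21 ± 0.258 (SE, n = 3 arrays each, limma, adjusted p = 0.281). Its partner was brighter than the circle on all 9 arrays and stood lower on the diet too, by 0.89 ± 0.153. The other 3 were circles on chromosome 9 (86668353 to 86669114, 761 bp, -0.62 ± 0.139), chromosome 2 (119575409 to 119575613, 204 bp, -0.70 ± 0.164) and chromosome 5 (101234917 to 101235909, 992 bp, -0.74 ± 0.176). The 204 bp circle was well above background on 2 metformin, 2 high fat diet and 3 control arrays, and the 992 bp circle on 2, 1 and 3. Partners of the circles of 761 and 204 bp, well above background on 8 and 7 of 9 arrays, differed by -0.37 ± 0.198 and -0.79 ± 0.513, and that of the 992 bp circle was so on none.

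Higher on the diet was a circle of 107 bp on chromosome 1 (11172008 to 11172115), with the smallest p of that direction. It stood at -0.28, -0.26 and -0.49 in the high fat diet arrays, against -0.98, -1.23 and -0.76 in the control arrays, a difference of 0.65 ± 0.155 (SE, limma, adjusted p = 0.335). The groups did not overlap, and the metformin arrays, at -0.69, -0.41 and -0.64, lay above the control arrays and overlapped the high fat diet arrays. Its partner, at a mean of -4.95, was well above background on only 4 of 9 arrays, so that the ratio of circle to partner is read here against values near background. The reading of that partner was higher on the diet too, by 1.28 ± 0.249. The other 4 were circles on chromosome 8 (130887119 to 130887293, 174 bp, 0.62 ± 0.166, and 86257313 to 86258251, 938 bp, 0.45 ± 0.137) and chromosome 14 (103646964 to 103647783, 819 bp, 0.48 ± 0.148, and 35635739 to 35635894, 155 bp, 0.49 ± 0.153), with adjusted p of 0.414 to 0.503. Partners of the circles of 174, 938, 819 and 155 bp differed by 0.56 ± 0.300, 0.66 ± 0.136, 0.19 ± 0.154 and 0.15 ± 0.375. The partner of the 819 bp circle was the brighter probe on all 9 arrays. That of the 155 bp circle was well above background on 3 of 9 arrays.

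**Figure D4:**
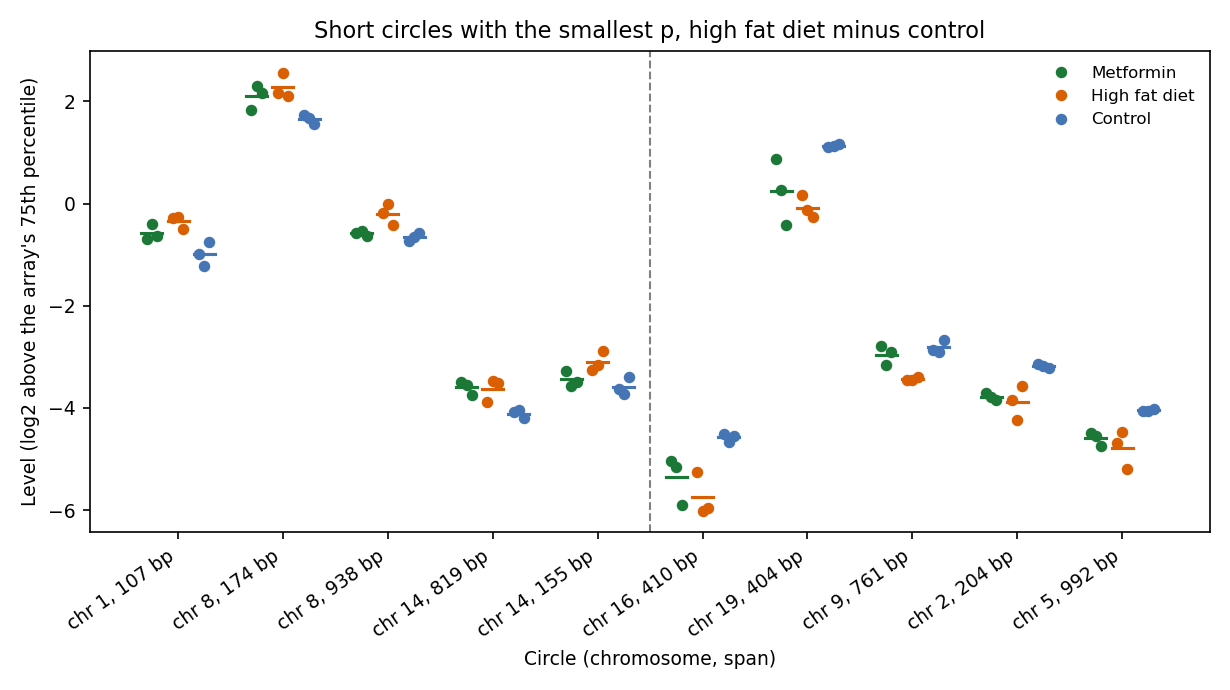
Level (log2 above the array's 75th percentile) of the 10 short circles with the smallest p for high fat diet minus control, 5 higher (left of the dashed line) and 5 lower; points are arrays, bars are group means, and the metformin, high fat diet and control groups stand from left to right. The control arrays of the 404 bp circle on chromosome 19 sit at 1.1 to 1.16 and its high fat diet arrays at -0.27 to 0.17, while its metformin arrays spread from -0.43 to 0.87.

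Metformin was compared with the high fat diet alone to see the drug's effect on that diet. No short circle was called, at 0 of 1152 tested (limma, background 0.0%), with a smallest adjusted p of 0.340. At an unadjusted p under 0.05, 28 were higher with metformin (2.43%, background 2.32%) and 7 were lower (0.608%, background 1.58%), 35 in all against a background of 3.9%. Arrays did not overlap for 67 circles that were higher (background 4.87%) and 21 that were lower (background 2.57%). The median log2 difference was 0.038, against 0.030 over all circRNAs tested. Leaving out high fat diet replicate 1 gave 76 higher circles, and leaving out replicate 2 gave 15. The count of lower circles was 14 and 22 when high fat diet replicates 1 and 3 were left out in turn, and 21 and 11 without metformin replicates 1 and 2. Other processing also raised the lower count, to 29 for the ratio of circle to partner (21 higher), 20 in the authors' deposited table, 18 with flagged spots kept, 17 with them in the percentile, 15 and 14 with normexp and 11 with array column as a covariate. Within column 2, with 2 arrays of each group, the median was 0.105 and the higher count 63. These comparisons use the same high fat diet arrays as those of diet against control.

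A circle on chromosome 15 (59155169 to 59155533, 364 bp) had the smallest p among the higher ones. It stood at 0.75, 1.07 and 0.43 in the metformin arrays, against -1.29, 0.15 and -1.35 in the high fat diet arrays, a difference of 1.58 ± 0.367 (SE, n = 3 arrays each, limma, adjusted p = 0.969). The groups did not overlap, although high fat diet replicate 2 lay closer to the metformin arrays than to its own group. The control arrays, at 0.38, 1.24 and 0.40, were above the high fat diet arrays too, and the diet difference was -1.50 ± 0.367 (adjusted p = 0.354). Its partner differed by 1.08 ± 0.267 between metformin and high fat diet.

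The others that were higher with metformin were circles on chromosome 1 (15302444 to 15303111, 667 bp, 0.46 ± 0.134), chromosome 9 (the 761 bp circle named above, 0.47 ± 0.139) and chromosome 14 (28725999 to 28726166, 167 bp, 0.47 ± 0.145), and one on chromosome 10 (86221003 to 86221981, 978 bp). The last was well above background on 2 metformin arrays, no high fat diet array and 3 control arrays, having passed only through the control group. Its fitted difference was 0.77 ± 0.231 (limma, adjusted p = 0.969). Against the bound for the high fat diet arrays it was 1.46-fold higher with metformin. That is no strict lower limit, since the metformin mean includes a reading not well above background. Partners of the circles of 667, 761 and 167 bp differed by -0.0047 ± 0.238, 0.10 ± 0.198 and 0.14 ± 0.171, and that of the 978 bp circle was well above background on no array.

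Among circles that were lower with metformin, the 938 bp circle on chromosome 8 stood at -0.58, -0.53 and -0.64 in the metformin arrays, against -0.18, -0.02 and -0.42 in the high fat diet arrays (-0.38 ± 0.137, limma, adjusted p = 0.969). The control arrays, at -0.72, -0.66 and -0.58, overlapped the metformin arrays. Its partner differed by -0.62 ± 0.136 between metformin and high fat diet. Differences of -0.43 to -0.34 were found for circles on chromosome 9 (79973950 to 79974259, 309 bp), chromosome 1 (12776160 to 12776779, 619 bp), chromosome 8 (75572193 to 75572364, 171 bp) and chromosome 7 (88581089 to 88581263, 174 bp), each with an adjusted p of 0.969. Partners of these circles of 619, 171 and 174 bp differed by 0.084 ± 0.153, 0.16 ± 0.311 and -0.83 ± 0.237. That of the 171 bp circle was well above background on 6 of 9 arrays, and that of the 309 bp circle on none.

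A circle of 318 bp on chromosome 16 (40753629 to 40753947), chosen after its values were seen, had the smallest adjusted p of the short circles in this comparison. It was left out of the circles above because 1 control spot was flagged. It stood at -3.90, -3.90 and -3.32 in the metformin arrays, against -5.02, -6.06 and -6.40 in the high fat diet arrays and -5.16 and -5.47 in the control arrays. It was well above background on 3 metformin, no high fat diet and 1 control array, and was at least 1.92-fold higher with metformin than on the diet alone (limma, adjusted p = 0.340). It passed the filter only through the metformin group, where it was high, so that its difference is partly set by that choice and is given as a description. Its partner was well above background on no array. A fit with array column as covariate called it (limma, adjusted p = 0.0116), and so did one that left out high fat diet replicate 1 (adjusted p = 0.0220), while the adjusted p over all alternatives ran from 0.0116 to 1.

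Metformin was also set against control, a comparison of diet, gavage and drug together, which array position cannot be told apart from. No short circle was called, at 0 of 1150 tested (limma, background 0.0%), and the smallest adjusted p was 0.524. At an unadjusted p under 0.05, 17 were higher (1.48%, background 1.64%) and 35 were lower (3.04%, background 3.43%), 52 in all against a background of 5.07%. Arrays did not overlap for 54 circles that were higher (background 4.56%) and 70 that were lower (background 6.59%). The median log2 difference was -0.027, against -0.028 over all circRNAs tested, and 0.0012 without the 2 arrays of lowest detection. The higher count was 8 without control replicate 2 and 27 when high fat diet replicate 2 was left out, and the lower count was 53 without metformin replicate 1 and 17 without metformin replicate 3. Other processing changed the balance of the counts. They were 34 higher and 22 lower in the authors' deposited table, 38 and 39 with array weights, 31 and 34 with normexp and quantile scaling, 28 and 31 with normexp and 75th percentile scaling, 29 and 41 for the ratio of circle to partner, and 26 and 49 with array column as a covariate. Without the 2 arrays of lowest detection they were 27 and 26.

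The smallest p was that of a circle of 101 bp on chromosome 18 (42805086 to 42805187), at -5.03, -5.41 and -5.83 in the metformin arrays, against -4.30, -4.50 and -4.27 in the control arrays. The difference was -1.07 ± 0.214 (SE, n = 3 arrays each, limma, adjusted p = 0.524), and its partner differed by -0.60 ± 0.223. It was well above background on 1 metformin, 1 high fat diet and 3 control arrays, and so passed the filter only through the control group, where it was high. Its partner was well above background on 4 of 9 arrays. Also lower were circles on chromosome 1 (74631958 to 74632271, 313 bp, -0.49 ± 0.133) and chromosome 2 (164679766 to 164680555, 789 bp, -0.53 ± 0.160), and the circles of 204 bp on chromosome 2 (-0.60 ± 0.164) and 404 bp on chromosome 19 (-0.896 ± 0.258) named above. The metformin arrays of the 404 bp circle spread from -0.43 to 0.87, all below the control arrays.

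Higher than control with metformin were the circles of 819 bp on chromosome 14 (0.52 ± 0.148) and 107 bp on chromosome 1 (0.41 ± 0.155) named above. They were joined by circles on chromosome 11 (29398409 to 29399406, 997 bp, 0.47 ± 0.145), chromosome 10 (5232421 to 5232591, 170 bp, 0.42 ± 0.148) and chromosome 1 (11255760 to 11256240, 480 bp, 0.43 ± 0.158). The partner of the 997 bp circle was well above background on no array. Adjusted p was 0.843 to 0.919 for all 5 (limma).

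Differences of the circle probe were mostly shared by the partner. Among short circles at an unadjusted p under 0.05, the partner shared the direction for 77 of 91 in high fat diet against control (84.6%), 25 of 35 in metformin against high fat diet (71.4%) and 43 of 52 in metformin against control (82.7%). Over all circRNAs the same shares were 84.9%, 75.7% and 75.3%. For the log2 ratio of circle to partner no short circle was called in any of the 3 comparisons. This counts direction only, and partners whose difference was smaller than its SE are included.

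**Figure D5:**
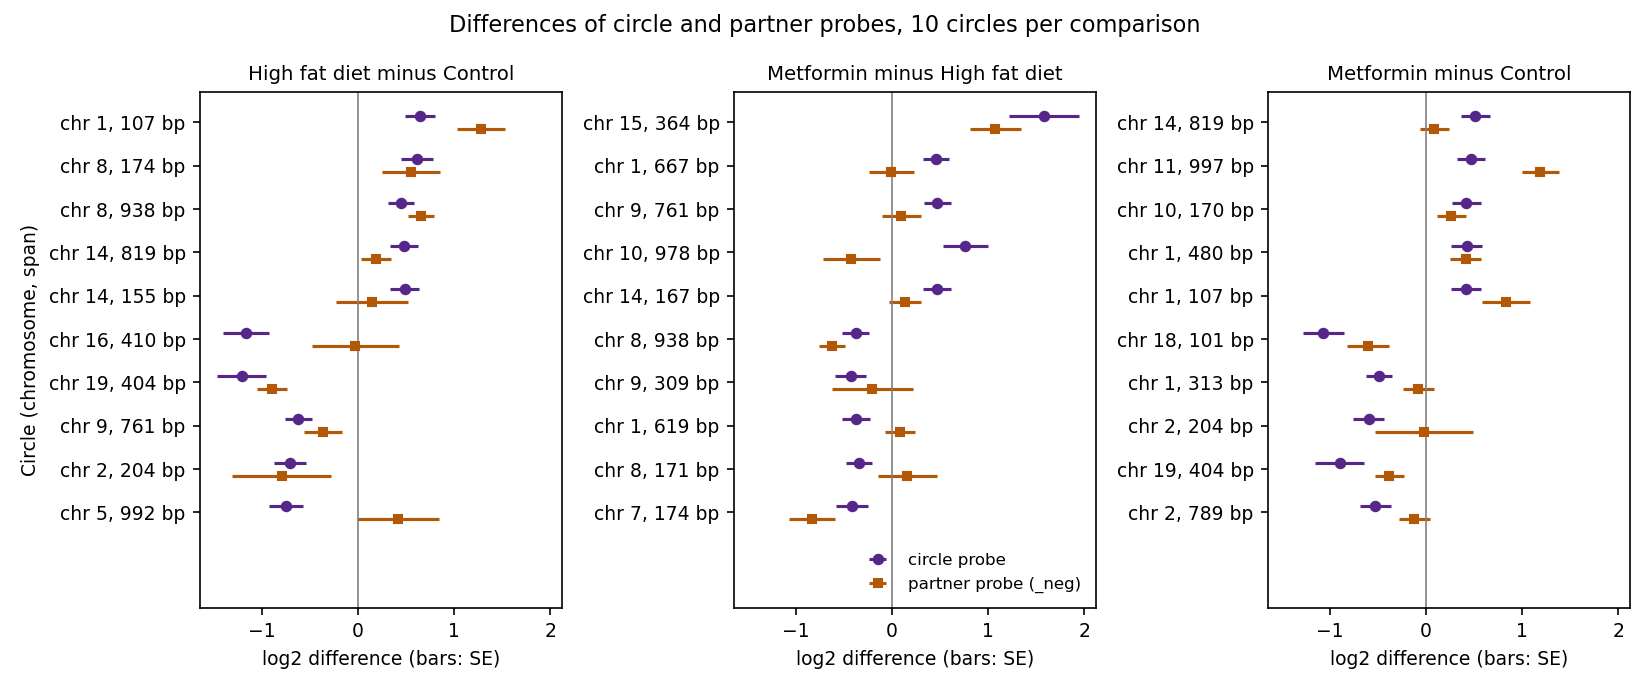
Log2 difference of circle probes (purple circles) and partner probes (orange squares), with bars of 1 SE on each side, for the 10 short circles of smallest p, 5 higher and 5 lower, in each of the 3 comparisons. The partner moves with the circle for the 404 bp circle on chromosome 19 (-1.21 and -0.89) and the 364 bp circle on chromosome 15 (1.58 and 1.08), and stays near 0 for the 313 bp circle on chromosome 1 (-0.49 and -0.08). Partners of the circles of 410, 992, 978, 309 and 997 bp were well above background on no array, so that their squares are readings near background.

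Short circles that share a start or end with a longer circle could be set beside it. For each short circle tested, its log2 difference was set beside the mean log2 difference of all tested longer circles sharing its start or end. These values correlated at 0.520 for high fat diet against control (311 short circles) and 0.355 for metformin against high fat diet (312). For metformin against control the correlation was 0.343 (310). The signs were the same for 64.0%, 61.2% and 64.2% of these short circles, in that order. These are descriptions across short circles that share arrays, and that share a locus and possibly a transcript with the longer circles. In the 402 short circles that share an end the median level was -1.11, against -1.12 in the 968 that share none.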

How the data were processed

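Processed spot intensities were deposited as scanner output, 1 file per array, extracted with Agilent Feature Extraction 11.5.1.1 on build mm9 per the file headers (version 10.7 per the submitters' processing notes). They are background-subtracted and not scaled between arrays. A log2 table with a row for each circRNA was deposited as well. Its values followed log2 of the intensity of circle probe minus partner, after a scaling between arrays that was not identified here. Some values recur exactly on different arrays. The chromosome 1 circle from 71698101 to 71698223 stands at 13.9503 on control replicate 2 and on metformin replicates 2 and 3. Scaling each array by its median alone would be unlikely to give such repeats. No source used here says how the authors set the floor of -3.32 in these values. Per the labels' protocols, 5 µg RNA was digested with RNase R for 30 minutes and labelled with Cy3.

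Spots flagged as outliers were left out, log2 was taken, the array's 75th percentile over 61079 probes was subtracted and spots of a probe were averaged. One fit over all 3 groups was made with limma 3.58.1 and R 4.3.3 (lmFit, eBayes; 6 residual and 5.72 prior degrees of freedom) on all circRNAs that passed the filter, with Benjamini-Hochberg adjustment over all of them and a threshold of 0.05. P-values measure the spread between pools. Where no array of a group was well above background, a bound is given against the mean of, per array, the higher of the probe's own level and the lowest level of any probe well above background. An adjusted p printed beside a bound is that of the fitted difference. No short circle was saturated. The number of arrays limits the precision. Tested on simulated data with 24546 circRNAs, the fit recovered 65 of 100 changed by 1 log2 unit and 96 of 100 changed by 2. The simulated noise was normal and independent between circRNAs, without effects of column or slide, and all changed circRNAs stood in 1 fit. Where fewer circRNAs change, the adjustment is stricter, so this recovery does not show which changes the comparisons above could have missed.

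Named circles were those with a value on all 9 arrays and the 5 smallest p in each direction of each comparison, the 10 highest levels, the 5 largest and 5 smallest differences from the partner among circles well above background on all 9 arrays, the 5 shortest, the 3 nearest to the span limit on either side, and any in the locus of another set described in these data, which holds the 404 bp circle on chromosome 19, named by its p as well. The 2 circles called only under an alternative were added after their values were seen. The set of circles, the lists and the tests were chosen with earlier results of these data known. Span classes and overlaps were computed in Python 3.11.15 from the probe names.

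Same-numbered arrays deviated from their group means with correlations of -0.141 to 0.191. Differently numbered arrays were not set beside them, so these values cannot show whether the numbers pair the arrays.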

Additional observations from a re-analysis of the deposited data

How the results depend on the processing

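Calls stayed at 0 in each comparison with the replicate block (0 called, medians of -0.069, 0.039 and -0.027). The labels give same-numbered arrays of different groups no link beyond that number. A call of 1 short circle arose in metformin against high fat diet and in metformin against control once the array column was a covariate (the 318 bp circle on chromosome 16, adjusted p = 0.0116, over all alternatives 0.0116 to 1, and adjusted p = 0.0498, over all alternatives 0.0498 to 1). The column covariate counted metformin replicate 3, from another slide, with column 1 of the first slide. With the authors' deposited values 1 was called in high fat diet against control and 1 in metformin against control. This was a circle on chromosome 9 (21738562 to 21738961), chosen after its values were seen, at 10.1 (adjusted p = 0.0245) and 8.45 (adjusted p = 0.0396), with all 3 control arrays at the floor, where the processed levels differed by 0.067 and 0.093 and those with normexp by -0.0027 (quantile) in the first and -0.0012 (quantile) and -0.0011 (75th percentile) in the second. Over its alternatives the adjusted p of this circle ran from 0.0245 to 0.998 and from 0.0396 to 1. Leaving out each array in turn gave 0 to 1 calls in metformin against high fat diet (1 without high fat diet replicate 1) and 0 in both others, with medians of -0.100 to -0.035 (high fat diet against control), 0.012 to 0.074 (metformin against high fat diet) and -0.044 to 0.0012 (metformin against control). The median for high fat diet against control was 0 in the authors' deposited values, 0.0099 within column 1 and -0.0053 on the ratio of circle to partner. That for metformin against high fat diet was 0.105 within column 2. On the circle to partner ratio, signs turned in the 107 bp circle on chromosome 1 (-0.63 for high fat diet against control, -0.42 for metformin against control), the 938 bp circle on chromosome 8 (-0.21, and 0.25 for metformin against high fat diet), the 204 bp circle on chromosome 2 (0.087), the 174 bp circle on chromosome 7 (0.41) and the 997 bp circle on chromosome 11 (-0.72). Partners of the 997 and 107 bp circles were well above background on 0 and 4 of 9 arrays, so that these turns are no measured reversal. With the authors' deposited values the 938 bp circle stood at -0.34 and 0.59. The cause was not tested. Circles at the floor of the deposited table on all arrays of both groups have a difference of 0 there, which shows no direction. The median level was -1.05 for spans under 500 bp and -1.06 with normexp. The median difference from the partner was 0.68 under 500 bp, 0.43 with normexp and 0.58 for pairs with both probes well above background on all 9 arrays. Slide as a block gives the same differences as leaving out metformin replicate 3. Chosen after seeing the data, leaving out the 2 arrays of lowest detection and scaling with flagged spots included gave 0 calls. Of the values of named circles, 872 kept their direction and their side of the threshold, a count that leaves their size aside. A further 12 turned in sign and 5 passed the threshold. No named circle was called in the main fit, many were picked by p, and most alternatives refit the same arrays. The 872 is therefore no measure of how firm the differences are.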
